A study of Homo sapiens with 12 samples.

Results

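The subunits of the phagocyte NADPH oxidase were examined in RNA-seq of U937, a human myelomonocytic leukemia cell line. The rows were chosen by gene symbol alone, as every transcript of CYBB, CYBA, NCF1, NCF4 or RAC2, which gave 5 of 44786 symbols and 39 of 197782 transcripts in the table. The 12 libraries formed 4 groups of 3: untreated cells, and cells given decitabine (DAC) at 200 nM, all-trans retinoic acid (ATRA) at 1 µM, or DAC + ATRA at these doses. DAC is a cytosine analog that traps DNA methyltransferases, and ATRA binds and activates retinoic acid receptors. Per the labels, treated cells were taken at 72 h after 3 days of treatment with daily fresh DAC, untreated cells at 96 h, and all were grown in 20% FCS with 5 ng/ml GM-CSF. The study's methods give a lower serum share, add ATRA only after DAC had been started, and dissolve ATRA in DMSO, whereas the labels of the controls say untreated. The series describes the triplicates as technical, so p-values measure only the spread between these libraries. All 4 groups are 1 cell line, in bulk, so fewer cells that express a gene cannot be told apart from less RNA per cell.

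The phagocyte NADPH oxidase passes electrons from NADPH across a membrane to oxygen and so makes superoxide, the first step of the respiratory burst. Its catalytic core is a heterodimer in the membrane of gp91phox, encoded by CYBB, and p22phox, encoded by CYBA. Cytosolic subunits, among them p47phox (NCF1) and p40phox (NCF4), and the GTPase RAC2 join the core when the cell is stimulated. Loss of CYBB, CYBA, NCF1 or NCF4 is known to cause chronic granulomatous disease, and the full set is typical of mature granulocytes and monocytes.

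Between 8042435 and 10683593 reads were counted per library, and 3 reads corresponded to 2.50 to 3.71 normalized reads. Columns of the table carry running numbers from 1 to 12, which are used here as library names. ATRA library 9 stood apart in its scaling: its deposited size factor was 1.20, against 1.05 when computed from protein-coding transcripts only. Of 16 myelomonocytic markers, 8 had a mean of at least 10 normalized reads, with MPO the highest at a mean of 31930, and no read was counted for CSF2RA or PTPRC. Counts of 0 are not read here as absence of a gene's RNA. Subunit transcripts without bases outside other annotated transcripts also had no reads, as given below. The summed level of these markers ran from 54780 to 61240 in untreated cells, 27050 to 40740 with DAC, 33100 to 45260 with ATRA and 24120 to 25630 with DAC + ATRA. This sum was mostly MPO: the other 15 genes, CD4 the highest, summed to 5251 to 5616, 6817 to 8093, 6588 to 7541 and 9849 to 10100 in the same order, and so were higher in every treated library than in any untreated one. Of the markers of other cell types, all 4 erythroid ones were at 0. The T-cell list summed to at most 10.2 in untreated and 9.50 in ATRA libraries but to 300.5 to 393 with DAC and 135 to 179 with DAC + ATRA, and CD2 alone of its 5 genes reached a mean of 10. The sums of the B-cell list (1 of 4 at a mean of 10 or more, CD79A the highest), the megakaryocyte list (2 of 4, GP9 the highest) and the fibroblast list (1 of 4, COL1A1 the highest) were also higher in every DAC and DAC + ATRA library than in any untreated library, as were the B-cell and fibroblast sums in every ATRA library. The 4 epithelial markers, with CDH1 at 0 and none at a mean of 10, summed to at most 0.910 in untreated and 0 in ATRA libraries, 8.65 to 25.9 with DAC and 12.4 to 23.2 with DAC + ATRA. The part of these markers in the results below was not tested.

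Of the 39 subunit transcripts, 19 had reads and 20 had none in any library. The normalized read count, that is, reads divided by 1 size factor per library, reached 10 in at least 3 libraries for 13 transcripts. Of these, 9 were protein-coding and entered the test: 5 of CYBA, 1 of CYBB, 1 of NCF1, 2 of RAC2 and 0 of NCF4. Transcripts were tested with limma on log2(normalized read count + 1), and a transcript was called at a Benjamini-Hochberg adjusted p under 0.01 over all 9016 protein-coding transcripts tested. All log2 fold changes are on this scale.

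With DAC, 4 of the 9 subunit transcripts were called higher than in untreated cells and 0 lower, against 30.6% of all tested transcripts higher and 8.7% lower. The 4 were the single tested transcripts of CYBB and NCF1, the main transcript of RAC2 and 1 transcript of CYBA. The NCF1 transcript had 2 reads in each DAC library and 0 in untreated ones, at or under the limit of 3 reads, and passed the filter only through the ATRA and DAC + ATRA libraries, so its calls are no support for the counts given here. With ATRA, 2 of 9 were called higher, CYBB and NCF1, against 6.47% of all transcripts higher and 2.67% lower, and 1, CYBB, with at least 10 normalized reads required in every library. With DAC + ATRA, 5 of 9 were called higher, against 32.6% higher and 14.2% lower. These were CYBB, NCF1, the main RAC2 transcript and 2 transcripts of CYBA. The shares of all transcripts depended on the scaling: with edgeR and TMM they were 25.4% and 17.8% for DAC, 6.64% and 4.31% for ATRA, and 29.2% and 20.3% for DAC + ATRA. So did the subunit counts, which were 2 of 9 higher for DAC with edgeR and TMM and 3 of 9 for DAC + ATRA with library size without mitochondrial transcripts, and these counts are not read as an excess over all transcripts. Across all 9016 transcripts the log2 fold changes had medians of 0.22 (DAC), 0.00 (ATRA) and 0.20 (DAC + ATRA), and the changes below are not corrected for these medians unless stated. In each comparison the plot of changes by transcript shows CYBB apart from CYBA and RAC2. The place of NCF1 depends on the pseudocount, the 1 added before taking logs, since untreated libraries had 0 reads of its transcript. Under alternatives its changes were as low as 0.27 (DAC), 0.88 (ATRA) and 1.39 (DAC + ATRA), so no separation is read from it.

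**Figure D1:**
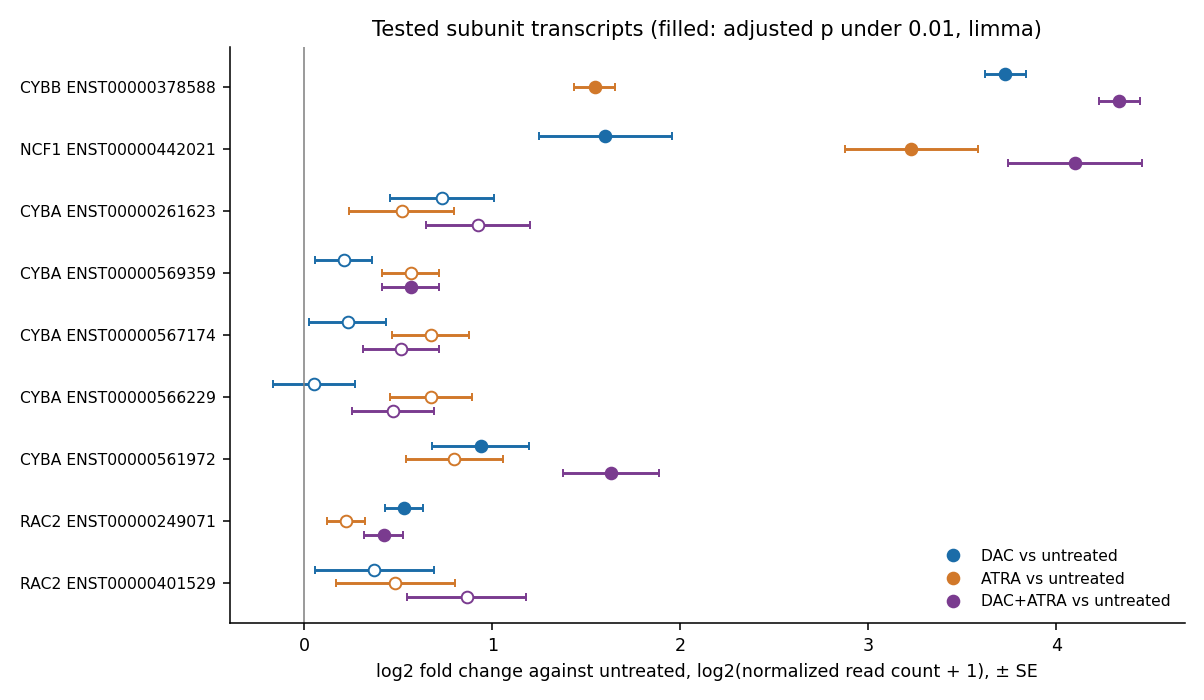
Log2 fold changes on the log2(normalized read count + 1) scale (x axis, bars ± SE from limma) of the 9 tested subunit transcripts against untreated cells, for DAC, ATRA and DAC + ATRA, with 3 libraries per group and filled points for an adjusted p under 0.01. CYBB lies between 1.54 and 4.34, and no CYBA or RAC2 transcript exceeds 1.63. NCF1 lies between 1.60 and 4.10, values that depend on the pseudocount since untreated libraries had 0 reads of its transcript.

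CYBB, the catalytic flavocytochrome subunit, rose with every treatment. Its coding transcript ENST00000378588 (hg38, chrX:37780059-37813461, plus strand, 13 exons) had 251, 212 and 209.6 normalized reads in the 3 untreated libraries. The DAC libraries had 3502, 2744 and 2732, the ATRA libraries 694, 642 and 628, and the DAC + ATRA libraries 4489, 4522 and 4579.9. The 4 groups did not overlap, and their order was untreated, ATRA, DAC and DAC + ATRA. The group means were 224 ± 23.1, 654 ± 34.9, 2993 ± 441 and 4530 ± 46.1 (SD, n = 3) in that order.

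Relative to untreated cells, CYBB was 13.3-fold higher with DAC, 2.92-fold higher with ATRA and 20.2-fold higher with DAC + ATRA. The log2 fold change was 3.73 (SE 0.11, limma adjusted p = 1.79e-16) with DAC, 1.54 (adjusted p = 1.02e-09) with ATRA and 4.34 (adjusted p = 1.24e-17) with DAC + ATRA. Among the 9016 transcripts it ranked 506th, 237th and 428th by log2 fold change in these comparisons. Exact two-sided permutation tests of these comparisons gave p = 0.1, the smallest value that 3 against 3 libraries allow. DAC + ATRA exceeded DAC by 0.61 (SE 0.11, adjusted p = 0.000352) and ATRA by 2.79 (adjusted p = 2.51e-14). Over 23 alternative settings, the adjusted p of the DAC + ATRA and DAC comparison ran from 1.53e-06 to 0.00341. The second CYBB row, ENST00000492288, had 10 reads in all, none of them in untreated libraries.

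In DAC + ATRA against DAC, 2 of 9 subunit transcripts were called higher, CYBB and NCF1, against a background of 6.08%. With at least 10 normalized reads required in every library, which removes the NCF1 transcript, the count was 1, CYBB alone. In DAC + ATRA against ATRA, CYBB was the 1 transcript of 9 called higher, against 25.9% of all transcripts (24% with edgeR and TMM, where lower calls were 13.7% in place of 8.88%).

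The promoter sequences of CYBB and NCF1 are shown because these genes rose with all treatments. They are the 250 bases upstream of the RefSeq transcription start (GRCh38.p14), on the gene's strand, at chrX:37779809-37780058 for CYBB and chr7:74773761-74774010 for NCF1, both on the plus strand. Of the 5 symbols, 3 (CYBB, CYBA, NCF1) were matched in the RefSeq promoter table. Capitals mark matches, on either strand, to the PU.1 core GAGGAA and to the core of the interferon-stimulated response element GAAANNGAA, in which N is any base.
CYBB: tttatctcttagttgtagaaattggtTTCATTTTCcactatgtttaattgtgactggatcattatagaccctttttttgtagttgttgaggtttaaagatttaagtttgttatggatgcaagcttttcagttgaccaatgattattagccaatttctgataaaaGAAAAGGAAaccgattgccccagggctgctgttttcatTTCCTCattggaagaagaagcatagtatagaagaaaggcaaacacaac
NCF1: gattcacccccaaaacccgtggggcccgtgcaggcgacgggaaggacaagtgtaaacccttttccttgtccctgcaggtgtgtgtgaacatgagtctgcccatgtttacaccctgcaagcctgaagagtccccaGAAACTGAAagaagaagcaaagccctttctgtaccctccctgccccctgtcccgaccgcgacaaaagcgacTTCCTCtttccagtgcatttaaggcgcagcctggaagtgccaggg

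The CYBB window held 2 matches to GAAANNGAA and 1 to GAGGAA, and the NCF1 window 1 of each, whereas the CYBA window (chr16:88651054-88651303, minus strand) held 0. Of 35093 promoter windows of this length, 6.88% held GAAANNGAA and 23.6% held GAGGAA. The retinoid receptor motif AGGTCA and the interferon-gamma site TTCNNNGAA, held by 12.1% and 6.57% of the windows, had no match in the 3 windows. The windows differed in CG dinucleotides, the sites of DNA methylation. CYBB had 1 CG, NCF1 9 and CYBA 18, against a median of 11 over all windows, and 6.06% of windows had fewer CGs than CYBB. A match is a match of letters only, and neither binding nor methylation was measured here.

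NCF1, the organizer subunit that docks on the membrane core, had 1 read in the 3 untreated libraries and was higher with ATRA than with DAC. NCF1 has near-identical copies, NCF1B and NCF1C, on the same chromosome. Of the 1300 windows of 50 bases in its full-length transcript ENST00000289473 (chr7:74774011-74789315, 11 exons), 83.9% also occurred in transcripts of these copies in GENCODE 44. That transcript had 0 bases outside other annotated transcripts and 0 reads. The reads lay in 5 of 11 NCF1 rows, chiefly in the retained-intron transcript ENST00000486097 (chr7:74783443-74785546, 280 reads) and in the coding transcript ENST00000442021 (chr7:74777269-74780802, 80 reads). Of their 50-base windows, 41.5% and 50.8% also occurred in transcripts of the copies, and 78.4% of the unspliced windows of ENST00000486097 occurred elsewhere on chromosome 7, so reads of the copies may be among these counts.

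Summed over its rows, NCF1 had 0, 1 and 0 reads in the untreated libraries, 9, 10 and 19 with DAC, 50, 50 and 68 with ATRA, and 86, 58 and 57 with DAC + ATRA. The normalized sums were 9.73, 9.74 and 18.9 with DAC, 52.8, 45.5 and 56.6 with ATRA, and 77.8, 61.1 and 70.4 with DAC + ATRA. The groups did not overlap, and their order was untreated, DAC, ATRA and DAC + ATRA. From the reads, the ratio to untreated cells was 42.0 (95% interval 7.10 to 1703) with DAC, 169 (29.9 to 6721) with ATRA and 229 (40.7 to 9103) with DAC + ATRA. These exact intervals cover counting error only, and their width comes from the single untreated read.

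For the coding NCF1 transcript ENST00000442021, the untreated libraries had 0 reads and each DAC library had 2. Its normalized read count was 8.45, 6.37 and 10.8 with ATRA and 15.4, 15.8 and 17.3 with DAC + ATRA. It was therefore at least 3.10-fold higher with ATRA and at least 5.87-fold higher with DAC + ATRA, taken against 3 reads per untreated library. Its fitted log2 fold change was 1.60 (adjusted p = 0.000779) with DAC, 3.23 (adjusted p = 8.16e-07) with ATRA and 4.10 (adjusted p = 3.58e-09) with DAC + ATRA. The sizes of these fitted changes depend on the pseudocount, since untreated libraries had 0 reads of this transcript. Under alternatives they ran both lower and higher. The transcript passed the filter on low values through the groups where it was high. Its call with DAC was lost under 5 alternatives, among them DESeq2 (adjusted p = 0.0244), edgeR with TMM (0.013) and a pseudocount of 10 (0.159). It was 2.50 higher with DAC + ATRA than with DAC (adjusted p = 2.51e-05) and 0.87 higher than with ATRA (adjusted p = 0.052), which was not called.

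**Figure D2:**
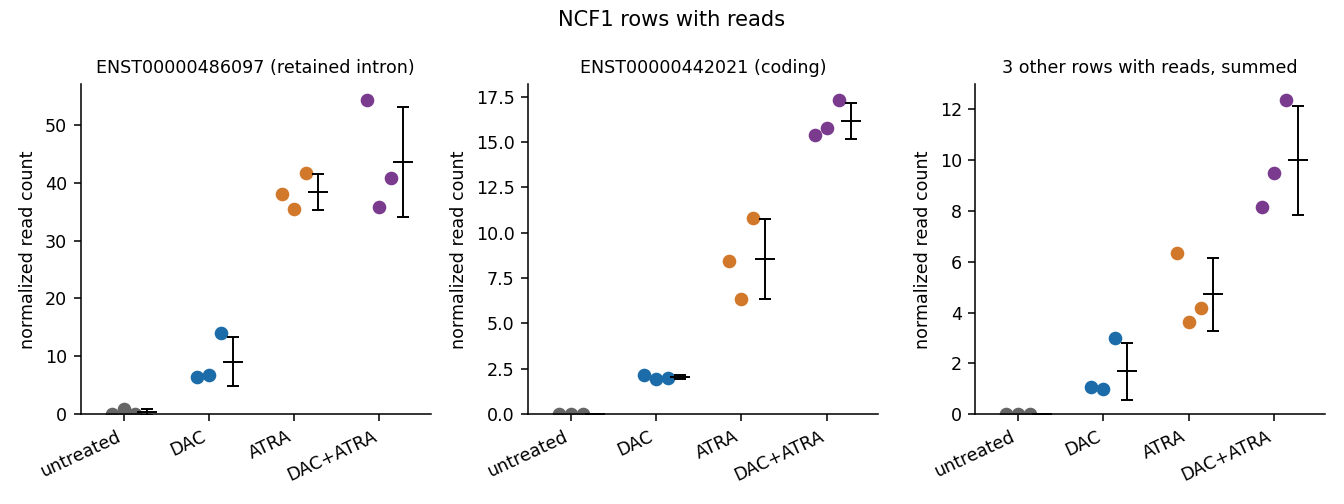
Normalized read counts (y axes, own scale per panel) of ENST00000486097, of ENST00000442021 and of the sum of the 3 other NCF1 rows with reads, in the 12 libraries by group, with the mean and SD of 3 libraries in black. In each panel the untreated libraries lie at or near 0, the DAC libraries between 0.974 and 13.9, and the ATRA and DAC + ATRA libraries above the DAC libraries of the same panel.

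Of the 2 single agents, DAC gave the higher CYBB level and ATRA the higher NCF1 level, a comparison that was added after the values had been seen. CYBB was lower with ATRA than with DAC, at 0.219 of the DAC level (log2 difference −2.18, adjusted p = 1.02e-12). Summed over its rows, NCF1 was higher with ATRA than with DAC, at means of 51.6 and 12.8 normalized reads, from 168 and 38 reads. For its coding transcript ENST00000442021, with 28 and 6 reads, the fitted log2 difference was 1.63 (adjusted p = 0.000803). Over 22 alternatives the difference ran from 0.617 to 2.195 and its adjusted p from 0.000478 to 0.0304. This transcript was not called with DESeq2 (0.027), without a filter (0.012) or with a pseudocount of 0.1 (0.0304). Of all transcripts, 7.49% were called higher and 25.4% lower with ATRA than with DAC (14.2% and 21.6% with edgeR and TMM). Among the 9016 transcripts, this difference ranked CYBB 8166th from the highest. NCF1 is not ranked, because its transcript had 2 reads in each DAC library and passed the filter only through ATRA-treated libraries.

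Values summed by symbol were fitted over 10240 symbols, with the same threshold. With DAC, CYBB, NCF1 and RAC2 were called higher, 3 of the 4 tested subunit genes, against 29.1% of symbols. NCF1 is in these counts although its sum passed the filter on low values only through treated libraries. With ATRA, CYBB and NCF1 were called higher, against 6.86%. All 4 were higher with DAC + ATRA, against 31.5%. In DAC + ATRA against DAC, CYBB and NCF1 were called (background 6.84%), and in DAC + ATRA against ATRA CYBB was called (background 25.4%). Of the single agents, NCF1 was called higher with ATRA than with DAC (background 9.62%; log2 difference 1.99, adjusted p = 2.55e-05) and CYBB lower (background 24.8%). The fit gave NCF1 log2 fold changes of 3.41 (DAC), 5.40 (ATRA) and 5.83 (DAC + ATRA), which depend on the pseudocount since untreated cells had 1 read.

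**Figure D3:**
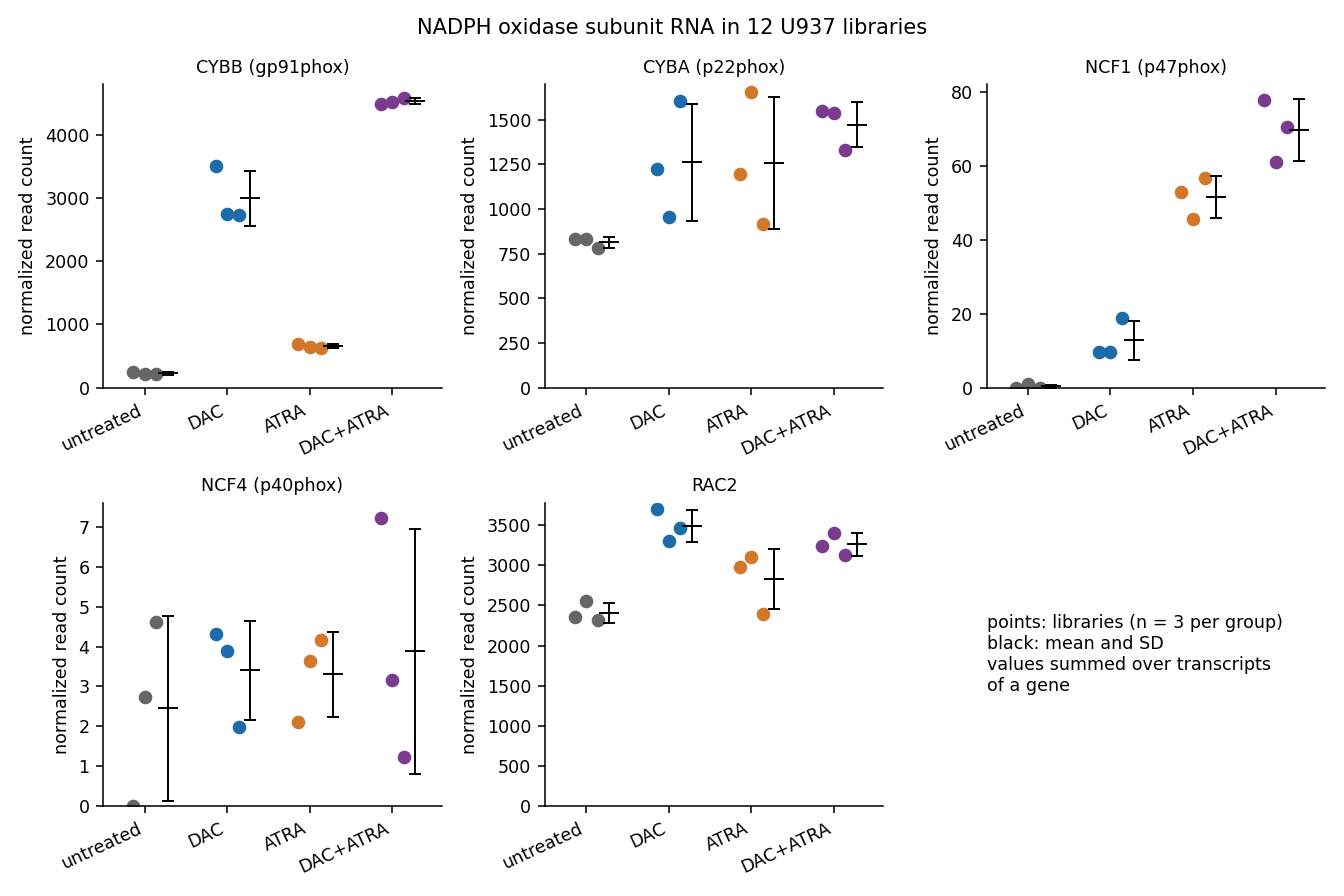
Normalized read counts summed over the transcripts of each subunit gene (y axes, own scale per panel, from 0) in the 12 libraries by group, with the mean and SD of 3 libraries in black. CYBB and NCF1 groups are separate from each other, CYBA and RAC2 groups overlap in part, and NCF4 is at most 7.23 in all libraries.

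CYBA, the stabilizing partner of gp91phox, was already present in untreated cells and had smaller fold changes than CYBB. Its main transcript ENST00000261623 (chr16:88643289-88651053, minus strand, 6 exons) had 541, 574 and 491 normalized reads in untreated libraries and 891, 662 and 1191 with DAC. With ATRA it had 815, 1202 and 458, and with DAC + ATRA 1071, 1064 and 916. All DAC and DAC + ATRA libraries lay above the untreated ones, whereas the ATRA libraries spanned the whole range, with library 9 below every untreated library. The log2 fold change was 0.73 (SE 0.28, adjusted p = 0.0415) with DAC, 0.52 (adjusted p = 0.267) with ATRA and 0.92 (adjusted p = 0.0117) with DAC + ATRA, and none was called at 0.01. With 1 library left out, the ATRA value ran from 0.19 to 0.89, and its adjusted p ran from 0.0117 to 0.715 over 23 alternatives. The DAC + ATRA change was called with DESeq2 (adjusted p = 0.0093), with only the compared groups fitted, and without DAC library 5 or 6, ATRA library 8 or 9, or DAC + ATRA library 12. The DAC change was called with only the compared groups fitted and without DAC library 5 or ATRA library 8 or 9.

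The sum over CYBA transcripts, which holds all 14696 reads of the gene, was called with DAC + ATRA only, at 1.81-fold (log2 fold change 0.85, SE 0.19, adjusted p = 0.000819; with edgeR and TMM 0.75). With DAC it was 0.60 (adjusted p = 0.012), and was called without DAC library 5 (0.79, adjusted p = 0.00105) or ATRA library 8 or 9. With ATRA it was 0.59 (adjusted p = 0.041), and 0.79 (adjusted p = 0.00781) without ATRA library 9. With 1 library left out, the sum's change was as low as 0.41 with DAC and 0.37 with ATRA. Of the other 4 tested CYBA transcripts, ENST00000561972, which was matched by symbol only, had 37.7, 21.8 and 36.0 normalized reads in untreated libraries. It had 44.3, 55.5 and 88.6 with DAC, 43.3, 72.8 and 51.6 with ATRA and 93.1, 110.5 and 91.4 with DAC + ATRA. Its DAC + ATRA value of 1.63 was called (adjusted p = 1.56e-05), while its DAC value of 0.94 (adjusted p = 0.00452) was not called without untreated library 2 or DAC library 6, with edgeR and TMM or under either other scaling. ENST00000569359 was 0.56 higher with DAC + ATRA (adjusted p = 0.00332), a call lost with TMM (0.0262), with the other scalings, and without untreated library 2 or DAC + ATRA library 10 or 11. ENST00000566229 and ENST00000567174 were not called in any comparison, with log2 fold changes against untreated cells between 0.05 and 0.67.

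RAC2, the hematopoietic Rac GTPase of the complex, had the most reads of the 5 genes, 36636 of 76407. These totals do not rank the genes by expression. Main transcripts differed in bases outside other annotated transcripts, with 93 for NCF1, 582 for RAC2 and 3850 for CYBB. Its main transcript ENST00000249071 (chr22:37225270-37244269, minus strand, 7 exons) had 2309.6, 2492 and 2271 normalized reads in untreated libraries. The other groups had 3643, 3213 and 3350.5 with DAC, 2916, 3040 and 2327 with ATRA, and 3108, 3300.1 and 3057 with DAC + ATRA. All DAC and DAC + ATRA libraries lay above the untreated ones, and ATRA library 9 lay within the untreated range. RAC2 was 1.44-fold higher with DAC (log2 fold change 0.53, SE 0.10, adjusted p = 0.000199) and 1.34-fold higher with DAC + ATRA (0.42, adjusted p = 0.00144). Relative to the median of all tested transcripts these changes were 0.31 and 0.22, and edgeR with TMM gave log2 fold changes of 0.32 and 0.28. With scaling by library size without mitochondrial transcripts, the DAC + ATRA value was 0.17 and was not called (adjusted p = 0.0394).

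With ATRA alone, RAC2 was 0.22 higher (adjusted p = 0.174), and without library 9 it was 0.34 higher (adjusted p = 0.00545). With 1 library left out the value was as low as 0.14, and its adjusted p reached 0.507 among 23 alternatives. DAC + ATRA differed from DAC by −0.11 (adjusted p = 0.548) and from ATRA by 0.20 (adjusted p = 0.117), and neither was called. The coding RAC2 transcript ENST00000401529 (chr22:37240805-37244248) was not called, with 0.37, 0.48 and 0.86 for DAC, ATRA and DAC + ATRA (adjusted p = 0.342, 0.371 and 0.0255). The retained-intron transcript ENST00000469532 had means of 29.0, 58.6, 35.8 and 64.0 normalized reads in untreated, DAC, ATRA and DAC + ATRA cells.

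For NCF4, which binds a membrane lipid, few reads were counted. It had 41 reads in 2 of its 9 rows over the 12 libraries. The reads were 0, 3 and 5 in untreated libraries, 4, 4 and 2 with DAC, 2, 4 and 5 with ATRA and 8, 3 and 1 with DAC + ATRA. The groups overlapped and no row passed the filter, so no difference could be tested from these counts. Its annotated coding transcripts ENST00000248899 and ENST00000397147 had 0 and 2 bases outside other annotated transcripts and no reads, and they overlap the antisense gene NCF4-AS1. The few reads are therefore not read as a low level of NCF4 RNA. Of the matched transcripts of all subunits, each with 0 bases outside other annotated transcripts had 0 reads. Those with reads had at least 62 such bases (ENST00000566229 of CYBA). Such bases did not always come with reads, as ENST00000488197 of NCF1 had 384 of them and 0 reads. Whether reads over shared bases were left out was not tested. How such reads, or reads on the opposite strand, were counted is not given in the sources used here.

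The combination was set against its single agents on both scales. On the log2 scale, the interaction is 0 when the combined log2 fold change equals the sum of the single ones. For CYBB it was −0.94 (SE 0.15, adjusted p = 0.000649), the 1 of 9 subunit transcripts called, against 1.67% of transcripts called lower. The observed 20.2-fold was below the product of the single folds, 39.0. On the linear scale the order turned: CYBB rose by 2769 normalized reads with DAC and by 430.1 with ATRA, and by 4306 with both. This was 1107 (SE 257) more than the sum of both rises, and 977 to 1362 with any 1 library left out.

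Summed by symbol, the CYBB interaction was called lower too, against 1.8% of symbols. The fit also called the NCF1 sum lower (−2.98, adjusted p = 0.000231), but with 1 untreated read it passed the filter only through treated libraries and the value depends on the pseudocount, whereas that of its coding transcript was −0.73 (SE 0.50, adjusted p = 0.505) and changed sign at a pseudocount of 10. On the linear scale NCF1 rose by 69.5 with both agents against a sum of 63.8, an excess of 5.62 (SE 6.59). For RAC2 the rise with both, 849.5 (sum over transcripts), differed by −650.1 (SE 269.5) from the sum of 1500, and for CYBA it differed by −233 (SE 295). With any 1 library left out, these differences ran from −865 to −513 for RAC2 and from −402 to −34.5 for CYBA. Their log2 interactions, −0.33 for the main transcript of each (adjusted p = 0.242 for RAC2 and 0.736 for CYBA), were not called.

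**Figure D4:**
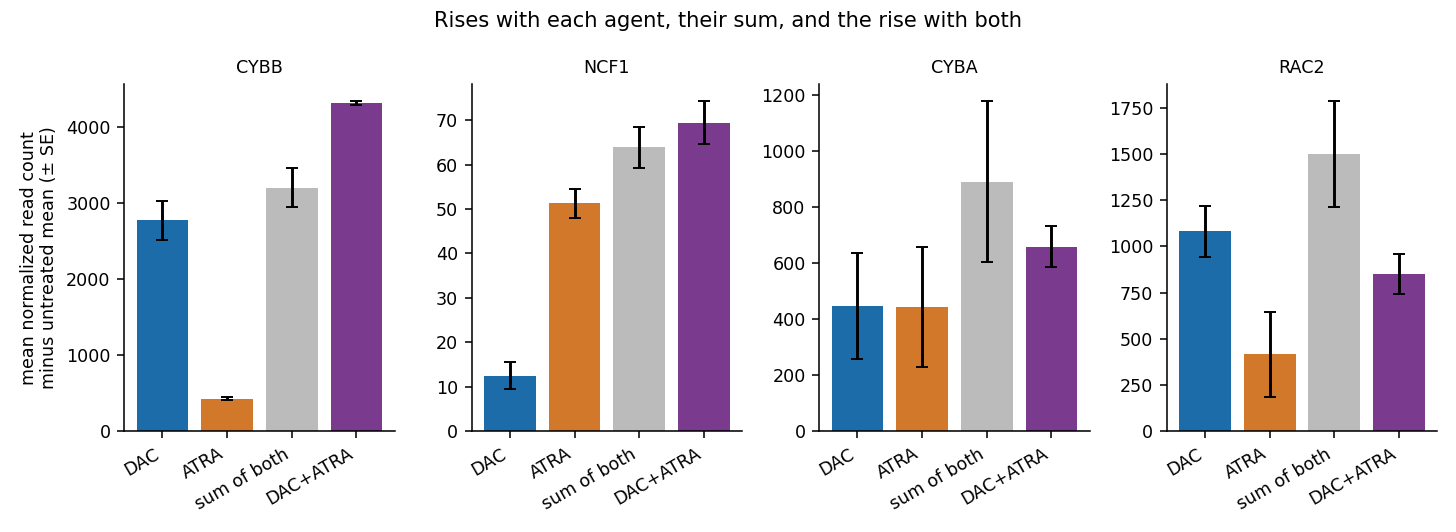
Rise over the untreated mean in normalized read counts summed by gene (y axes, own scale per panel, from 0) with DAC, with ATRA, as the sum of both rises, and as measured with DAC + ATRA, with bars as means and error bars as SE from 3 libraries per group. The CYBB bar for DAC + ATRA, 4308, lies above the sum of 3200, while those of CYBA and RAC2 lie below their sums.

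Genes whose pattern was most like that of a subunit were taken by Pearson's r of log2(normalized read count + 1) over the 12 libraries, among 4896 coding transcripts with a mean of at least 50 reads. The 12 points share their 4 groups, so r mainly reflects group means and is given as a description. Nearest to CYBB were IFIT5 (r = 0.996), an interferon-induced RNA-binding protein, BTG2 (0.996), an antiproliferative factor, and RAB31 (0.995), a small GTPase. IFIT5 had means of 64.9, 950.5, 229 and 1701 in untreated, DAC, ATRA and DAC + ATRA cells. Nearest to NCF1 were THBD (0.989), encoding thrombomodulin, PLPP3 (0.987) and the transcription factor IRF1 (0.985). THBD had means of 192, 1166, 10520 and 23160. THEM6 (0.966), BORCS6 (0.953) and CMIP (0.946) were nearest to CYBA, and SUFU (0.976), NPLOC4 (0.973) and FXR2 (0.969) to RAC2.

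RAC3, a Rac GTPase close to RAC2, had 37 reads in all, with 11, 8, 15 and 3 in untreated, DAC, ATRA and DAC + ATRA cells, and did not pass the filter. Of 18 listed genes of the oxidase family, 4 were tested by their main coding transcript. NOX5, a calcium-regulated oxidase that works without the cytosolic subunits, had the highest fitted change with DAC + ATRA, from 87 reads in all. It had at most 1.84 normalized reads in untreated and 1.06 in ATRA libraries, 2.16 to 10.7 with DAC and 20.0 to 23.5 with DAC + ATRA, and so passed the filter only through the groups where it was high. RAP1A, a GTPase found with the flavocytochrome, was the lowest at −0.39 with DAC + ATRA (adjusted p = 0.0207; called lower under each other scaling). RAC1 was not called (0.24, −0.11 and 0.20 with DAC, ATRA and DAC + ATRA; adjusted p = 0.0566, 0.564 and 0.108). The list's median was 0.31, −0.04 and 0.27 in these comparisons, against 0.24, 0.00 and 0.22 over 7622 symbols. C17orf62, the older symbol of CYBC1, a chaperone of the gp91phox and p22phox dimer, was 0.77 higher with DAC + ATRA when summed over its rows (adjusted p = 0.000148), and was not called with DAC (0.23, adjusted p = 0.21) or ATRA (0.32, adjusted p = 0.169).

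The counts of called genes in the lists that follow stand against the shares of all transcripts called higher and lower, 30.6% and 8.7% with DAC, 6.47% and 2.67% with ATRA, and 32.6% and 14.2% with DAC + ATRA (17.8% and 20.3% lower with edgeR and TMM for the first and last), and with so few genes tested nothing particular to a list is read from them. Of 21 genes that signal to assembly of the complex, 11 were tested. Here and in the lists below, a gene's value is that of its main coding transcript only, without its other rows. With DAC 2 were called higher and 2 lower, with ATRA 4 and 0, and with DAC + ATRA 5 and 2. With edgeR and TMM the counts were 1 and 3, 4 and 0, and 4 and 2. The highest with DAC + ATRA was PRKCA, a protein kinase C, at means of 197 (DAC), 13.8 (ATRA) and 203 (DAC + ATRA) against 8.31 to 12.9 in the untreated libraries (log2 fold change 4.11, adjusted p = 6.77e-13). The lowest was AKT1 (ENST00000553797, 524 reads in all) at −0.74 (adjusted p = 0.00946), which DESeq2 did not call (0.0195). The 4 genes called with ATRA were PIK3CG, PLCG2, PREX1 and PRKCB. The medians were −0.03, 0.24 and 0.22 with DAC, ATRA and DAC + ATRA.

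Of 10 enzymes that supply NADPH, 5 were tested, with 1 higher and 1 lower under DAC, 2 and 0 under ATRA and 2 and 1 under DAC + ATRA (edgeR with TMM called 1 and 3 under DAC). ME1, malic enzyme 1, had the highest fitted change with DAC + ATRA, with means of 0.30, 59.0, 0.55 and 28.4 in untreated, DAC, ATRA and DAC + ATRA cells. It passed the filter only through the DAC and DAC + ATRA libraries, and the size of its fitted change depends on the pseudocount. NNT, the mitochondrial transhydrogenase, was the lowest at −0.86 (adjusted p = 0.000321). The list's medians were −0.10, 0.16 and −0.03.

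Of 19 genes that handle superoxide and peroxide, 12 were tested, and 1 was higher and 4 lower with DAC, 1 and 2 with ATRA, and 1 and 5 with DAC + ATRA. HMOX1, heme oxygenase 1, was the highest at 3.67 with DAC + ATRA (adjusted p = 2.09e-12). The lowest was MPO, myeloperoxidase, which turns peroxide into hypochlorous acid, at −1.80 (adjusted p = 6.73e-09), from means of 52120 in untreated to 14970 in DAC + ATRA cells. CAT, catalase, fell by 1.67 with DAC + ATRA (adjusted p = 4.28e-11). The medians were −0.26, −0.18 and −0.04.

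Of 17 transcription factors known to act at promoters of subunit genes, 14 were tested. With DAC 7 were called higher and 3 lower, with ATRA 4 and 0, and with DAC + ATRA 5 and 3, with list medians of 0.56, 0.21 and 0.17. IRF1 was the highest with DAC + ATRA, with means of 53.5, 125, 337.5 and 694 in untreated, DAC, ATRA and DAC + ATRA cells (log2 fold change 3.67, adjusted p = 5.76e-15). MEIS1 was the lowest at −1.79 (adjusted p = 1.67e-09). SPI1, encoding PU.1, had 1599 reads in its main coding transcript ENST00000533968, which was not called. Its log2 fold changes were −0.22, 0.33 and −0.10 with DAC, ATRA and DAC + ATRA (limma adjusted p = 0.237, 0.178 and 0.586). IRF8 was not called either (0.03, 0.41 and 0.37; adjusted p = 0.901, 0.192 and 0.113).

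**Figure D5:**
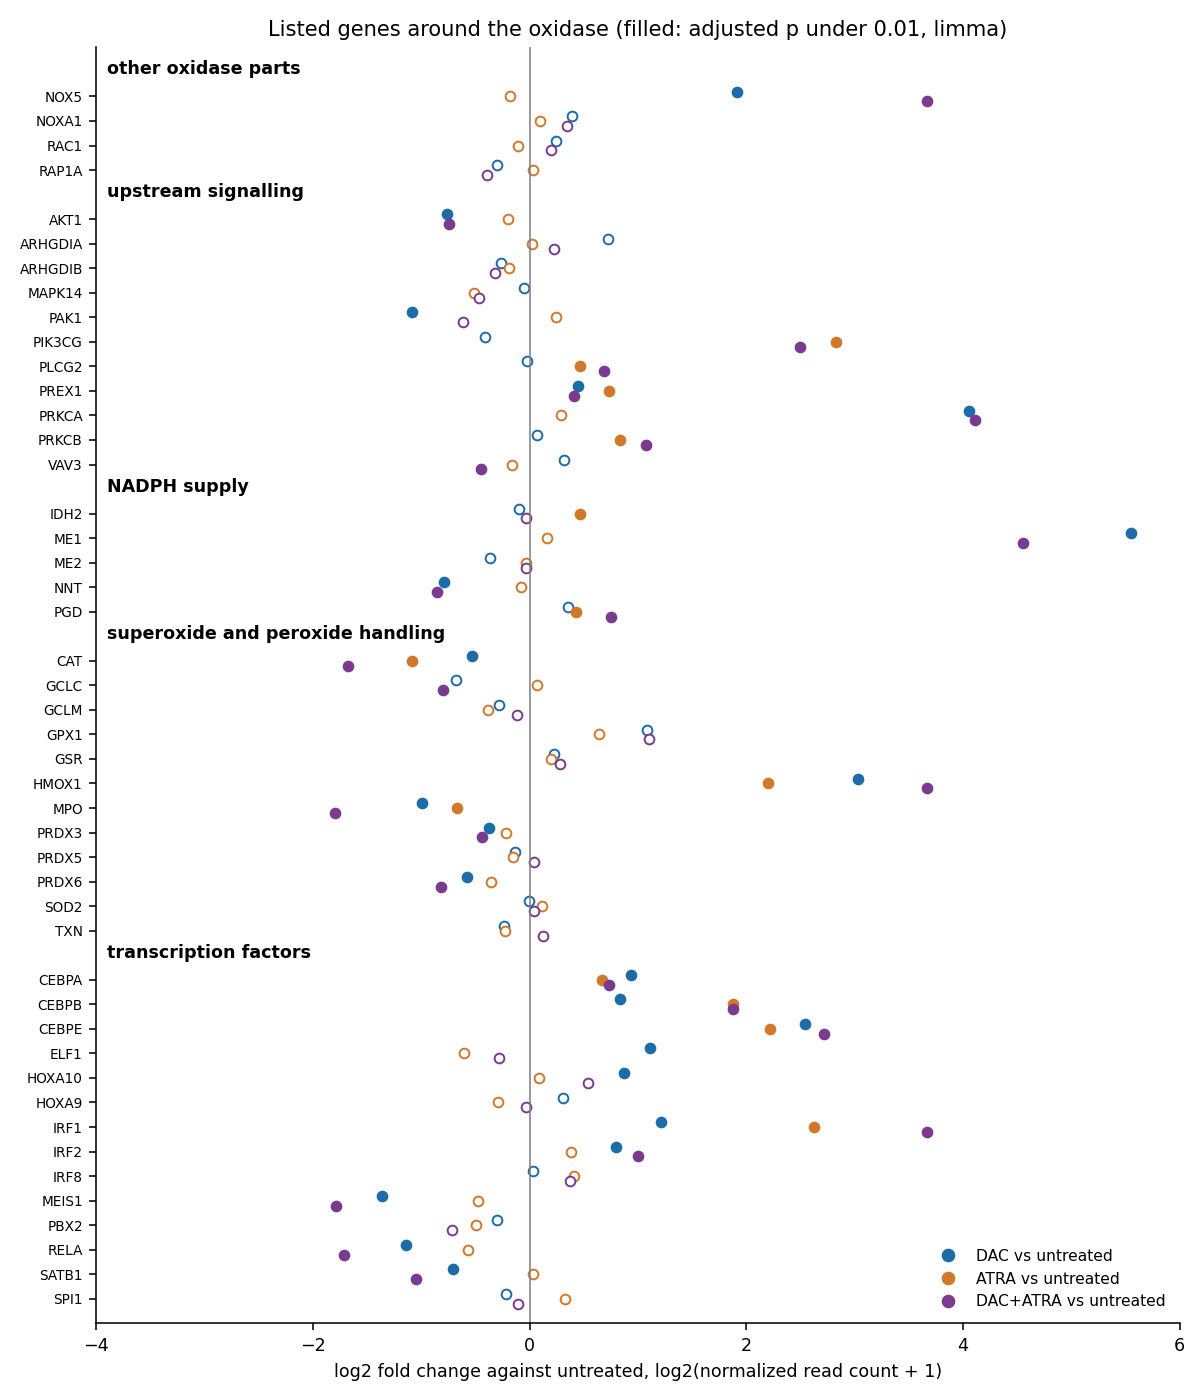
Log2 fold changes against untreated cells on the log2(normalized read count + 1) scale (x axis) for the tested genes of 5 lists around the oxidase, for DAC, ATRA and DAC + ATRA, with 3 libraries per group and filled points for a limma adjusted p under 0.01. HMOX1 and IRF1 reach 3.67 with DAC + ATRA, while MPO lies at −1.80 and MEIS1 at −1.79.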

How the data were processed

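RNA-seq was analysed from 12 libraries of U937 cells, 3 per group, grouped by the labels. According to the study's methods and the submitters' processing notes, the authors aligned reads to hg38 with STAR, counted them per transcript with HTSeq and normalized them with DESeq2. FastQC is also named, and versions, counting mode and strand setting are not given in the sources used here. The deposited signal values are read counts per transcript divided by 1 size factor per library. Within 0.01 of a read, 100% of values were whole reads, which were recovered. The deposited table is a signal table and not a raw count table, so the limma test planned for this case was the main test.

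Transcripts were matched to GENCODE 44 (174768 of 197782), and those not matched took their coding status from their symbol. Protein-coding transcripts with at least 10 normalized reads in at least 3 libraries were fitted with limma 3.58.1 (R 4.3.3; lmFit, then robust eBayes with a mean-variance trend) on log2(value + 1), all 12 libraries in 1 fit, with Benjamini-Hochberg adjustment and a threshold of 0.01, the threshold of the study. All adjusted p-values are from this fit unless another is named. Exact permutation tests were two-sided. Alternatives were DESeq2 1.42.0 and edgeR 4.0.16 (TMM) on the recovered reads, size factors from protein-coding transcripts, library size without mitochondrial transcripts (36.3% to 42.6% of reads), no filter, at least 10 in every library, all transcripts, sums by symbol, pseudocounts of 0.1 and 10, only the groups compared, a threshold of 0.05, and each library left out in turn. The comparison of ATRA with DAC, and edgeR or a left-out library on sums by symbol, were added after the values had been seen. The members, lists, motifs and named genes were chosen with earlier results of these data known. All rows of the 5 symbols were described, a gene's main transcript being its coding transcript with the highest mean. In each list the tested genes with the highest and lowest change with DAC + ATRA were named, with RAC1, RAC3, CYBC1, SPI1 and IRF8, and the 3 transcripts nearest to each subunit. CAT and the genes called with ATRA in the signalling list were named after their values were seen. Fits were checked on simulated data with an assumed spread. For DAC against untreated cells, limma called 22% of transcripts raised 1.5-fold, 84% of those raised 2-fold and 100% of those raised 4-fold. It called 70% of those lowered to 0.5 of their level. A small change that was not called may therefore still be present. Tables used Python 3.11.15 with pandas 2.3.3. 1 listed gene is not reported here.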

Additional observations from a re-analysis of the deposited data

Results flagged for a closer look

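For CYBB the change with ATRA differed between cells with and without DAC on the log2 scale. The log2 change with ATRA was 1.54 without DAC and 0.61 with DAC, a difference of −0.94 (limma adjusted p = 0.000649), and it lay between −1.02 and −0.82 over 22 alternatives, under each of which it was called. On the linear scale the direction was the opposite, and the rise with both agents exceeded the sum of the single rises by 1107 normalized reads (SE 257). For NCF1 summed by symbol, where no difference can be claimed from so few untreated reads, the fitted change was 5.40 without DAC and 2.42 with DAC, a difference of −2.98 (adjusted p = 0.000231). With edgeR and TMM this difference was −4.46. The untreated cells held 1 NCF1 read and the sum passed the filter on low values only through treated libraries, so its size depends on the pseudocount. For the coding NCF1 transcript the difference was −0.73 (adjusted p = 0.505) and 0.235 at a pseudocount of 10, and on the linear scale the NCF1 rise with both agents differed from the sum of the single rises by 5.62 (SE 6.59). Single outlying libraries were not tested for.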

How the results depend on the processing

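No paired analysis was possible because the columns carry running numbers 1 to 12 and no replicate number, so the planned replicate block was not run. Of 90 counts of called subunit transcripts with all libraries, 69 stayed within 1.5 times the reported count. The others follow, with the reported count first. For DAC the count was 4, and 2 with edgeR and TMM. For ATRA it was 2, 1 with at least 10 in every library and 6 at 0.05. For DAC + ATRA it was 5, 3 with library size without mitochondrial transcripts and 8 at 0.05. For DAC + ATRA against DAC it was 2, and 1 with at least 10 in every library, a filter that removes NCF1. For DAC + ATRA against ATRA it was 1, and 2 with DESeq2, without a filter, with all transcripts, with a pseudocount of 10, with only the groups compared and at 0.05. For the interaction it was 1, and 2 with all transcripts and with either fit of sums by symbol. For ATRA against DAC it was 2, 1 with DESeq2, without a filter, with at least 10 in every library and with a pseudocount of 0.1, and 4 with edgeR and TMM and at 0.05. With 1 library left out the counts ran from 3 to 5, 2 to 3, 4 to 6, 2 to 2, 1 to 2, 1 to 1 and 2 to 3 in this order, and the second call against ATRA appeared without untreated library 2, DAC library 6 or ATRA library 8. Apart from the constructions named, the cause of these shifts was not tested. Of 397 values of single transcripts or genes with all libraries and 708 with 1 left out, 3 changed sign, none of them called. The NCF1 interaction was 0.235 at a pseudocount of 10. The main CYBA transcript ran from −0.022 (without DAC library 5) to 0.40 in DAC + ATRA against DAC, and from −0.54 to 0.15 (without ATRA library 9) in ATRA against DAC. CYBB was called in all 7 comparisons under every alternative run. NCF1 and NCF4 had 408 and 41 reads in all, and the part of bases shared with other transcripts in these counts was not tested.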
